A study of Mus musculus with 24 samples.

Results

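The comparison described here set 3T3-L1 cells on day 4 of adipocyte differentiation against the same line on day 0. It used 6 of the 24 arrays of a time course, 3 labelled day 4 and 3 labelled day 0. All 9558 genes detected on 3 or more of the 24 arrays were tested, including 275 undetected on both days. The 3 day 2 arrays were used to place each change within the interval. 3T3-L1 is a fibroblast-like line cloned from mouse 3T3 cells, so every sample came from a single clonal line and no animal or genotype varied. The labels call the day 0 samples undifferentiated and name the same differentiation medium for both days, with insulin, dexamethasone (a synthetic glucocorticoid) and the phosphodiesterase inhibitor IBMX, which raises cyclic AMP. They do not say whether the day 0 cells were harvested before that medium was added, or when it was changed. Total RNA was labelled with biotin and hybridised to Illumina mouse bead arrays with 25697 probes.

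Confluent 3T3-L1 preadipocytes that receive this mixture re-enter the cell cycle for a short period of clonal expansion and then leave it. C/EBP beta and C/EBP delta act early and induce PPAR gamma and C/EBP alpha, the transcription factors that maintain each other and switch on the genes for lipid storage and insulin-responsive metabolism. Over the same days the cells lose their fibroblast matrix and stress fibres and take on a rounded, lipid-filled shape.

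All levels below are log2 intensities after background correction and quantile normalisation, and the levels of different genes are not comparable because each comes from its own probe. Values for a day are given in the order of replicates 1, 2 and 3. A gene was called higher or lower when its adjusted p was under 0.05 in a limma fit of all days, with Benjamini-Hochberg adjustment over the 9558 genes, and n is 3 arrays per day throughout. Nothing in the labels says that the replicates came from separate cultures, so p-values measure the spread between these arrays only.

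The 6 arrays were of similar brightness, with mean intensities of 430 to 460, and 11783 to 12516 probes were detected on each (45.9% to 48.7%). Correlations between arrays over the tested genes were 0.987 to 0.995 within day 0, 0.982 to 0.991 within day 4 and 0.867 to 0.881 between the days. Day 4 replicate 2 stood apart from the other day 4 arrays in 162 genes by at least 2-fold, 138 of them brighter on it. Replicate 1 did so in 221 genes, 187 of them dimmer, and 120 of those 221 departed by at least 2-fold in the same direction on day 0 replicate 1 as well. Replicate 3 did so in 30 genes. Counts of called list members are therefore also given without day 4 replicate 2 where they differ, as are differences of named genes that move by over 1.5 times.

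The labelled cell type was checked against marker genes. All day 0 samples carry the cell type label adipocytes, but 13 of the 20 tested adipocyte markers were undetected on all 3 day 0 arrays, among them the adipocyte hormone gene Adipoq, the droplet coat gene Plin1, the lipid carrier gene Fabp4 and the insulin-responsive glucose transporter gene Slc2a4. On day 4, 16 of the 20 were detected on all 3 arrays and none was undetected on all. Of 12 tested markers of fibroblasts or preadipocytes, 11 were detected on all 3 arrays of each day. Of 16 macrophage and leukocyte markers only Cd14, Lyz2 and Aif1 passed the detection filter, and of 12 endothelial markers only Eng, Flt1 and Egfl7.

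Day 4 differed from day 0 in 5745 of the 9558 tested genes (60.1%), with 2763 higher (28.9%) and 2982 lower (31.2%). A difference of at least 2-fold was called in 2339 genes (24.5%), of which 1030 were higher (10.8%) and 1309 lower (13.7%). At 4-fold or more there were 293 higher and 455 lower genes, whereas at 16-fold or more there were 57 higher and 26 lower. The median difference over all genes was 0.02 on the log2 scale. The 3 arrays of the 2 days did not overlap in 6037 genes (63.2%). For 5891 genes (61.6%) the 95% interval of the difference lay within 2-fold in either direction. Detection changed as well as level. There were 161 genes undetected on every day 0 array, detected on every day 4 array and called higher, and 341 genes with the reverse pattern that were called lower. Without day 4 replicate 2 the same fit called 5494 genes, 2686 higher and 2808 lower, and 5323 genes were called both ways with no change of direction.

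**Figure D1:**
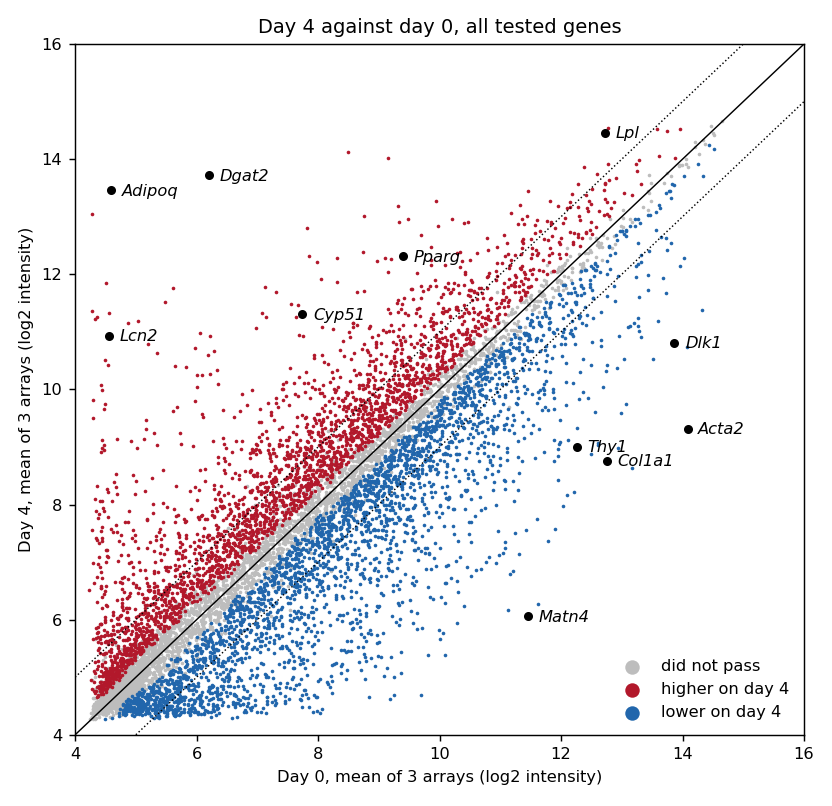
Each point is a gene, with its mean log2 intensity over the 3 day 0 arrays on the horizontal axis and over the 3 day 4 arrays on the vertical axis. Red genes were called higher on day 4 (2763), blue genes lower (2982) and grey genes neither; the solid line marks equal levels and the dotted lines a 2-fold difference. Adipoq and Acta2 lie far off the line on opposite sides.

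Adipoq, Cidec and Dgat2 led the 15 largest rises. The adiponectin gene Adipoq measured 4.55, 4.68 and 4.56 on day 0 and 13.24, 13.67 and 13.47 on day 4. It was not above background on any day 0 array, so its rise is a bound, at least 410-fold (adjusted p = 2.62e-22). Cidec, whose product fuses lipid droplets, measured 4.24, 4.31 and 4.30 and then 12.93, 13.13 and 13.09, and rose at least 308-fold (adjusted p = 5.99e-22). Dgat2, the enzyme of the last step of triglyceride synthesis, was detected on both days at 6.15, 6.33 and 6.12 and then 13.77, 13.64 and 13.75, a rise of 7.52 ± 0.08 on the log2 scale (SE; adjusted p = 3.42e-23). The groups of arrays were far apart for all 3 genes. Further bounds were at least 134-fold for G0s2, the inhibitor of adipose triglyceride lipase, at least 95.9-fold for adipogenin (Adig), at least 93.0-fold for Gpat3, at least 89.2-fold for the lipogenic gene Thrsp and at least 87.4-fold for Mrap, an accessory protein of the ACTH receptor. Lcn2 (lipocalin), Pip and Hp (haptoglobin) encode secreted proteins and rose at least 70.8-fold, 53.2-fold and 50.2-fold. Gpd1, Anxa8, Fabp5 and Hsd11b1 completed the set with log2 differences of 6.30 ± 0.16, 6.16 ± 0.12, 6.14 ± 0.26 and 6.04 ± 0.11.

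Matn4 and Pdpn led the 15 largest falls, which also included Acta2. Matn4, a matrilin of the extracellular matrix, measured 11.42, 11.47 and 11.48 on day 0 and 5.68, 6.63 and 5.87 on day 4, a difference of -5.39 ± 0.18. The membrane glycoprotein gene Pdpn measured 11.54, 11.64 and 11.68 and then 6.01, 7.01 and 5.78, a difference of -5.36 ± 0.19. Smooth muscle actin (Acta2) measured 14.07, 14.16 and 14.01 and then 8.86, 10.43 and 8.66, a difference of -4.77 ± 0.27. Day 4 replicate 2 was the highest of the day 4 arrays for these 3 genes, and without it their differences were -5.68, -5.73 and -5.32. Others among the largest falls were the receptor gene Prokr1 (-5.0 ± 0.19), the endocytic adaptor gene Dab2 (-4.95 ± 0.20), Aebp1 (-4.71 ± 0.13), the collagen cross-linking enzyme gene Lox (-4.53 ± 0.14), the sulfotransferase gene Chst2 (-4.43 ± 0.20) and the thrombospondin gene Thbs2 (-4.41 ± 0.26). Actg2, an enteric smooth muscle actin, was undetected on all day 4 arrays and fell at least 19.8-fold. Srpx2, Anxa3, Sdc3 and Smarca1 differed by -4.37 to -4.34, and Gata2, the remaining gene of the 15, is described below.

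**Figure D2:**
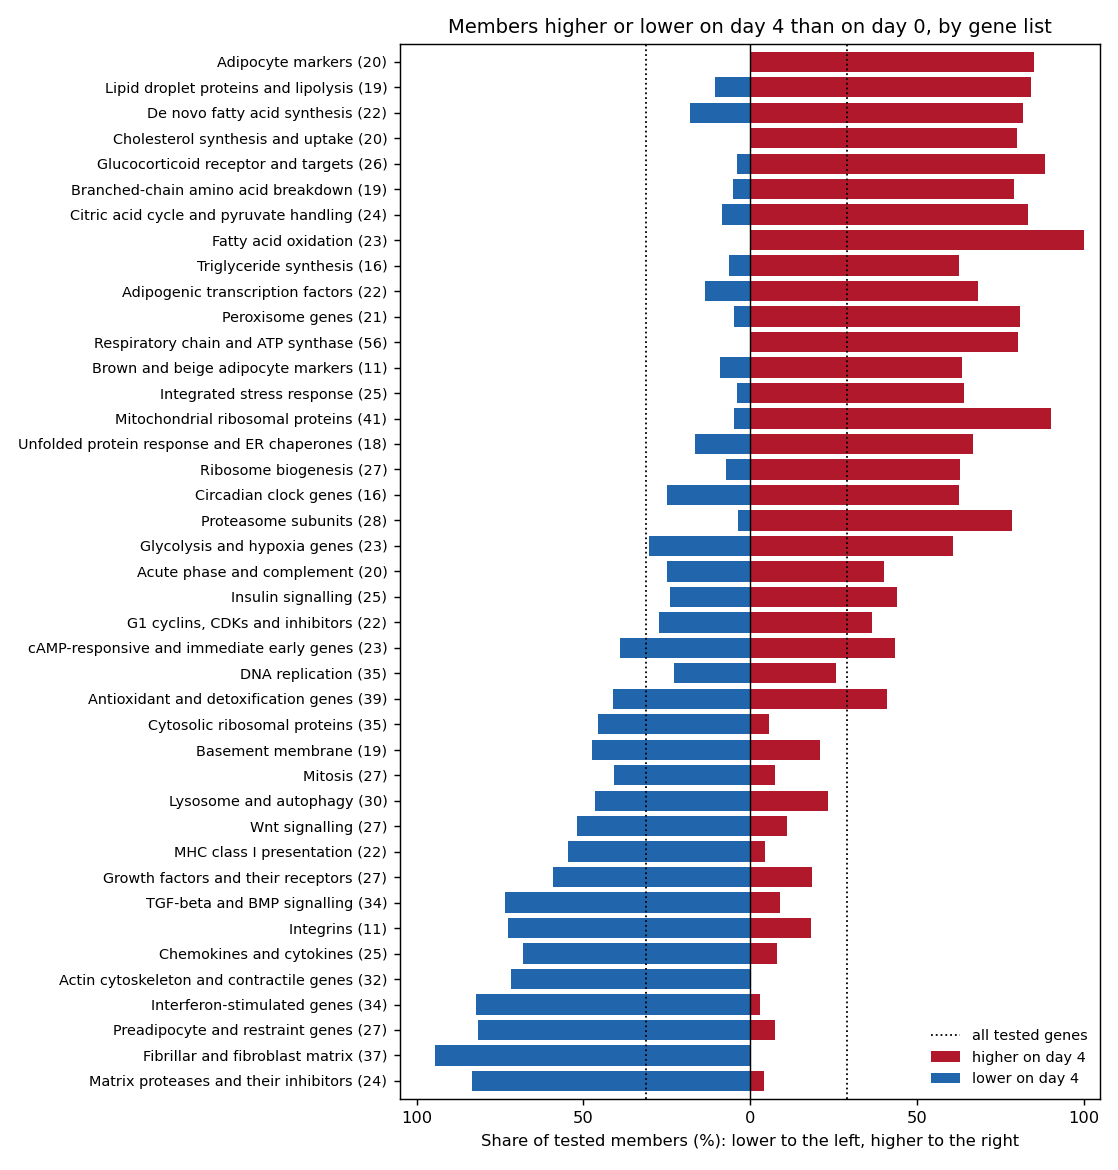
For each gene list with at least 10 tested members (number in brackets), red bars to the right give the percentage of members called higher on day 4 and blue bars to the left the percentage called lower. Dotted lines mark the shares over all tested genes, 28.9% higher and 31.2% lower, and lists are ordered by their median log2 difference. Lipid and mitochondrial lists lie at the top and matrix, protease and preadipocyte lists at the bottom.

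The transcription factors that drive adipogenesis were mostly higher on day 4. Of 22 tested members 15 rose and 3 fell, with a median log2 difference of 1.18. Pparg measured 9.57, 9.32 and 9.28 on day 0 and 12.45, 12.16 and 12.33 on day 4. It was thus already well above background on day 0, and it rose by 2.92 ± 0.11 (adjusted p = 3.67e-15). Cebpa, the partner of PPAR gamma in the mature cell, measured 5.28, 4.75 and 5.01 on day 0, 7.65, 7.47 and 7.61 on day 2 and 9.25, 8.70 and 9.0 on day 4. Its day 0 level was detected on only 2 arrays, and the rise was 3.97 ± 0.16. The coactivator gene Ppargc1b rose by 4.00 ± 0.25, and Nr1h3, which encodes the oxysterol receptor LXR alpha, by 3.41 ± 0.09. The lipogenic factor gene Srebf1 rose by 1.88 ± 0.13. Klf5 and Cebpb, both early-acting factors, were highest on day 2. Klf5 measured 7.48, 7.23 and 7.19 on day 0, 10.90, 10.71 and 10.84 on day 2 and 10.04, 9.53 and 9.75 on day 4. Cebpb measured 11.31, 11.32 and 11.42, then 12.98, 12.97 and 13.05, then 12.50, 12.30 and 12.59. The day 4 rises of these genes were therefore smaller than the day 2 ones, at 2.47 ± 0.15 for Klf5 and 1.11 ± 0.09 for Cebpb. The members that fell were Klf4 (-1.24 ± 0.22), Zfp467 (-1.02 ± 0.15) and Ebf1 (-0.77 ± 0.15), all of which are known as activators of adipogenesis. Cebpd was not analysed here.

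Genes that mark preadipocytes or hold back differentiation moved the other way. Of 27 tested members 22 fell and 2 rose, with a median of -1.60. Without day 4 replicate 2 the counts were 21 and 2. Gata2, a zinc finger factor that restrains the preadipocyte, measured 9.22, 9.39 and 9.14 on day 0 and 4.54, 4.52 and 5.0 on day 4, where it was detected on 1 array. The difference was -4.56 ± 0.15. Dlk1, the preadipocyte factor whose loss permits differentiation, measured 13.97, 13.74 and 13.89 on day 0, 12.31, 12.37 and 12.45 on day 2 and 10.87, 10.83 and 10.73 on day 4. It remained detected on every array while falling by 3.06 on the log2 scale (SE 0.13). Zfp521, an antagonist of EBF factors, differed by -3.77 ± 0.10, the surface antigen gene Thy1 by -3.26 ± 0.13, Wnt6 by -3.23 ± 0.14 and the progenitor marker Pdgfra by -2.36 ± 0.10. Sfrp2, a secreted Wnt modulator, differed by -3.70 ± 0.49. The 2 members that rose were Foxo1, a mediator of insulin signalling (1.82 ± 0.14), and Ddit3, the stress factor CHOP (0.89 ± 0.16).

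**Figure D3:**
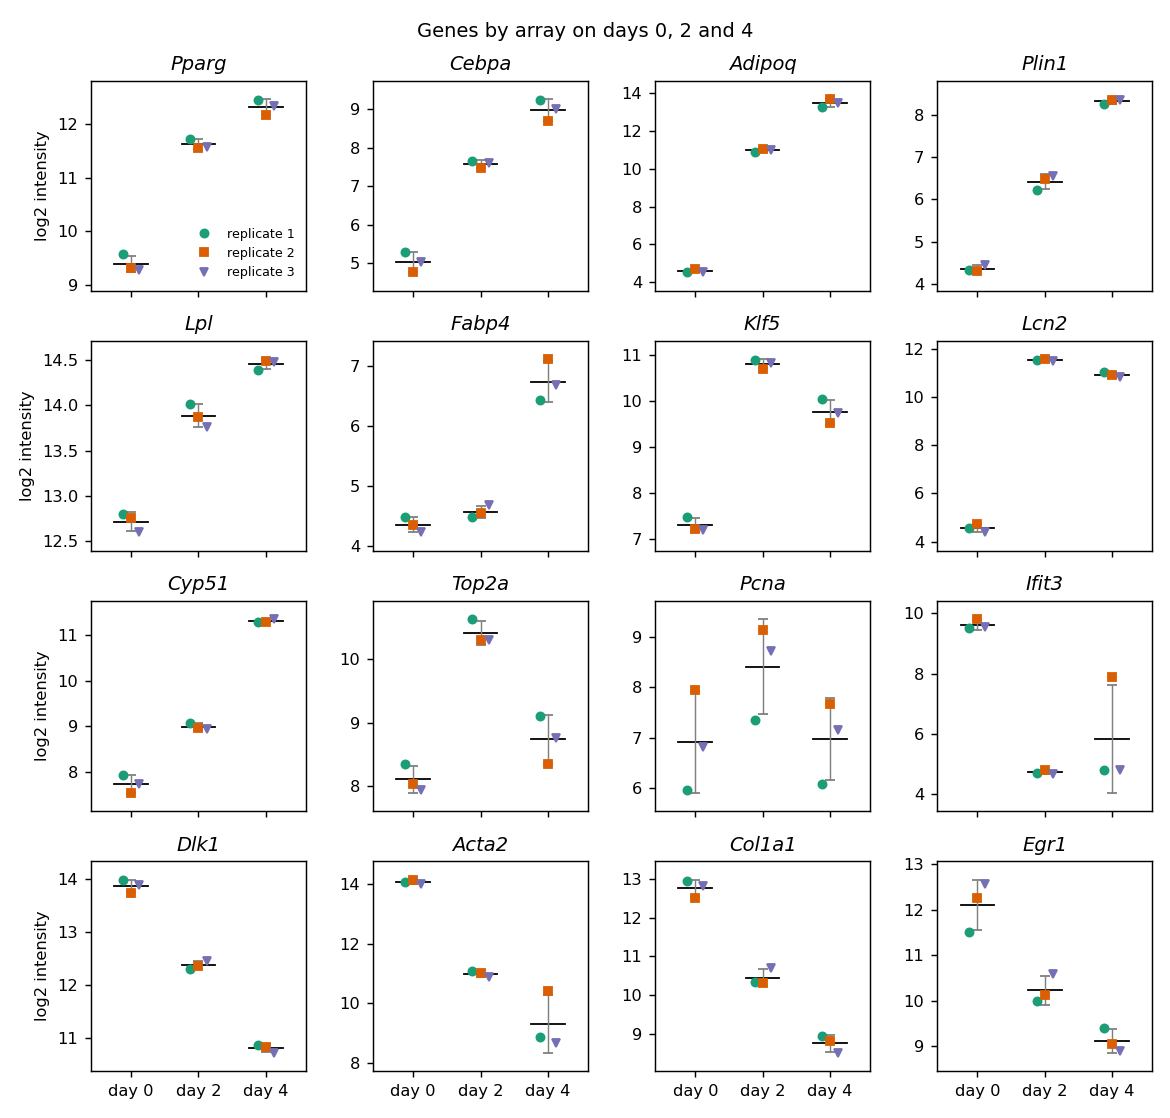
Log2 intensity of 16 genes on each array of days 0, 2 and 4, with symbols for replicates 1, 2 and 3, horizontal bars for the mean of 3 arrays and error bars of 1 SD. Each panel has its own vertical scale. Pparg, Cebpa and Adipoq climb through day 2, Klf5, Top2a and Pcna are highest on day 2, Ifit3 is low on day 2 and high on day 4 only in replicate 2, and Dlk1, Acta2 and Col1a1 descend.

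Among the 20 tested adipocyte markers, 17 rose and none fell, with a median of 2.65. The median level over these markers was 4.51, 4.53 and 4.51 on the day 0 arrays, 5.77, 5.95 and 6.02 on the day 2 arrays and 8.23, 8.35 and 8.49 on the day 4 arrays. Without day 4 replicate 2 the count was 15. In bulk RNA, fewer expressing cells and less RNA per cell cannot be told apart, here and for every list below. The triglyceride lipase gene Pnpla2 rose by 5.63 ± 0.07 and the angiotensinogen gene Agt by 5.59 ± 0.12. Plin1, which coats the lipid droplet, measured 4.32, 4.29 and 4.46 on day 0, 6.22, 6.48 and 6.55 on day 2 and 8.26, 8.35 and 8.35 on day 4, a rise of at least 11.6-fold. Slc2a4 measured 4.49, 4.52 and 4.60, then 5.33, 5.41 and 5.49, then 8.00, 8.34 and 8.29, a rise of at least 10.8-fold that came mostly after day 2. The lipoprotein lipase gene Lpl was bright already on day 0, at 12.80, 12.76 and 12.60, and reached 14.39, 14.49 and 14.48, a rise of 1.74 ± 0.07. Fabp4 was undetected on all day 0 and day 2 arrays and measured 6.42, 7.10 and 6.67 on day 4, at least 3.9-fold higher. The hormone genes resistin (Retn) and leptin (Lep) were at least 1.9-fold and 1.6-fold higher on day 4. The fatty acid transporter gene Cd36 did not pass the test, with 4.76, 5.32 and 4.91 on day 4 against 4.30, 4.36 and 4.34 on day 0, a difference of 0.67 (limma, adjusted p = 0.0876, or 0.00245 with the replicate number as a block). Car3, a carbonic anhydrase of fat and muscle, also did not pass: it measured 4.37, 8.23 and 4.38 on day 4, so that only replicate 2 was above background. Its difference was 1.33 (adjusted p = 0.0613, or 0.0377 with the block) and 0.04 without replicate 2, against 1.98 and 1.97 without replicates 1 and 3, where it passed. Cfd was not analysed here.

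The enzymes that make and store fat were higher in most cases. In triglyceride synthesis 10 of 16 tested genes rose and 1 fell (median 1.23). Gpat3 and the acyltransferase gene Agpat2, which act on successive intermediates of the pathway, reached 11.37, 11.28 and 11.31 and 12.94, 12.66 and 12.78 on day 4. Agpat2 rose by 4.98 ± 0.14 and Dgat1 by 4.38 ± 0.13, while Agpat4 fell by 0.80 on the log2 scale (SE 0.11). In de novo fatty acid synthesis 18 of 22 genes rose and 4 fell (median 1.90). The desaturase gene Scd1 measured 8.88, 9.30 and 9.27 on day 0 and 13.68, 14.27 and 14.13 on day 4, a rise of 4.88 ± 0.14. The pyruvate carboxylase gene Pcx rose by 4.70 ± 0.14 and the citrate carrier gene Slc25a1 by 2.95 ± 0.10. The members that fell included the acyl-CoA synthetase gene Acsl5 (-1.65 ± 0.11), the elongase gene Elovl6 (-1.34 ± 0.15) and the desaturase gene Fads1 (-1.01 ± 0.16). Fads1 measured 10.99, 11.90 and 10.98 on day 4, and without replicate 2 its difference was -1.31.

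Among droplet proteins and lipolysis genes 16 of 19 rose and 2 fell (median 2.58), and 15 rose without day 4 replicate 2. Hormone-sensitive lipase (Lipe) measured 5.06, 5.18 and 5.29 on day 0 and 9.41, 9.51 and 9.46 on day 4, a rise of 4.29 ± 0.11. Fitm2, which acts in droplet formation at the endoplasmic reticulum, rose by 4.24 ± 0.07. Plin3, a perilipin found in many cell types, went the other way, from 9.21, 9.32 and 9.43 to 7.56, 7.99 and 7.82, a difference of -1.53 ± 0.16. Gnas, the stimulatory G protein subunit, differed by -0.51 ± 0.10. The perilipins were thus not all higher: Plin1 rose and Plin3 fell.

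Most tested mitochondrial and peroxisomal genes were higher on day 4. All 23 tested genes of fatty acid oxidation rose (median 1.30), led by carnitine acetyltransferase (Crat, 3.79 ± 0.15), the very-long-chain acyl-CoA dehydrogenase gene Acadvl (2.25 ± 0.09) and Cpt2, the inner-membrane carnitine palmitoyltransferase (2.22 ± 0.08). Crat measured 7.71, 7.49 and 7.82 on day 0 and 11.60, 11.27 and 11.52 on day 4. Of 56 respiratory chain and ATP synthase genes 45 rose and none fell (median 0.97), and 42 rose without day 4 replicate 2. With the replicate number as a block 52 rose and 1 fell. The median level of that list was 11.46, 11.34 and 11.34 on day 0 and 12.22, 12.19 and 12.29 on day 4, so a list of bright genes shifted on every array. The complex III subunit gene Cyc1 rose by 2.30 ± 0.11, and the cytochrome c gene Cycs by 2.58 ± 0.57 with a wide spread between replicates (6.95, 8.35 and 7.96 on day 4). In the citric acid cycle and pyruvate handling 20 of 24 rose and 2 fell (median 1.38). Pdhb, a pyruvate dehydrogenase subunit, rose by 3.05 ± 0.14 and Idh3a by 2.49 ± 0.09, while the pyruvate dehydrogenase kinase gene Pdk3 fell by 1.17 on the log2 scale (SE 0.09). Among mitochondrial ribosomal proteins 37 of 41 rose and 2 fell (median 0.88), with Mrpl12 the largest at 2.38 ± 0.08. The 2 that fell were Mrps6 (-0.64 ± 0.14) and Mrpl23 (-0.53 ± 0.09).

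Of 21 tested peroxisome genes 17 rose and 1 fell (median 0.99). Pex11a, which acts in peroxisome division, measured 7.21, 7.24 and 6.98 on day 0 and 11.30, 11.26 and 11.21 on day 4, a rise of 4.12 ± 0.19. Gnpat, the first enzyme of plasmalogen synthesis, rose by 3.20 ± 0.10, whereas Agps, the next enzyme of that pathway, fell by 1.15 on the log2 scale (SE 0.22). Branched-chain amino acid breakdown contained a similar contrast. There 15 of 19 genes rose and 1 fell (median 1.47). The mitochondrial aminotransferase gene Bcat2 measured 7.58, 7.49 and 7.82 on day 0 and 11.38, 11 and 11.41 on day 4. The cytosolic aminotransferase gene Bcat1 measured 8.35, 8.25 and 8.26 and then 5.46, 5.14 and 5.17. Bcat2 thus rose by 3.63 ± 0.15 and Bcat1 differed by -3.03 ± 0.13.

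Genes of cholesterol synthesis and uptake rose late. Of 20 tested members 16 rose and none fell (median 1.54). Without day 4 replicate 2 the counts were 15 higher and 1 lower. Cyp51, the sterol demethylase, measured 7.93, 7.55 and 7.74 on day 0, 9.08, 8.95 and 8.95 on day 2 and 11.29, 11.29 and 11.34 on day 4. Insig1, the sterol-sensing regulator of the pathway, measured 5.88, 5.59 and 5.76, then 6.51, 6.22 and 6.12, then 8.85, 9.25 and 9.03. The rises from day 0 to day 4 were 3.57 ± 0.13 and 3.30 ± 0.12, and day 2 lay nearer day 0 for both. The dehydrogenase gene Nsdhl, lanosterol synthase (Lss) and the mevalonate pathway gene Mvd rose by 2.59 ± 0.16, 2.58 ± 0.13 and 2.28 ± 0.12. On day 2, 13 of the 20 members were below the midpoint of their own day 0 and day 4 means and 2 were above it, against 18.5% and 18.1% of all tested genes. RefSeq promoters (250 bases before to 50 after the start, GRCm38.p6) were searched for 12 motifs, on both strands. For this list only the count of the CCAAT box is given, and none for the sterol regulatory element or the other motifs. The CCAAT box lay in 16 of the 17 members with a promoter (94.1%) and in 43.7% of the 7786 tested genes with a promoter. Among the members of larger change with a match before the start, 4 are shown as 60-base windows in the direction of the gene. The windows let the match be seen in place, with CCAAT or its reverse complement ATTGG in capitals.
Cyp51, chr5:4104698-4104757, minus strand: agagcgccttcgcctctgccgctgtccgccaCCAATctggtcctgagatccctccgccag
Insig1, chr5:28071168-28071227, plus strand: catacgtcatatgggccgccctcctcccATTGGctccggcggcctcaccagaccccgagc
Nsdhl, chrX:72918461-72918520, plus strand: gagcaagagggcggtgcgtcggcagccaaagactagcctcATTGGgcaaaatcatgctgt
Lss, chr10:76531515-76531574, plus strand: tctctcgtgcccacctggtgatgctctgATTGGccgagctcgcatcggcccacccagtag

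The agents of the medium act through the glucocorticoid receptor, cyclic AMP and the insulin receptor. Of 26 tested glucocorticoid receptor genes and targets 23 rose and 1 fell (median 1.52), and 22 rose without day 4 replicate 2. The median level of the list was 7.63, 7.66 and 7.62 on day 0, 10.29, 9.96 and 10.07 on day 2 and 10.22, 10.06 and 10.08 on day 4. Hsd11b1, which regenerates active glucocorticoid, measured 5.48, 5.47 and 5.48, then 11.19, 11.05 and 10.82, then 11.54, 11.49 and 11.53. Fam107a measured 4.42, 4.41 and 4.47, then 10.23, 9.92 and 10.13, then 8.84, 9.05 and 8.85, and was at least 17.5-fold higher on day 4 than on day 0. On day 2, 17 of the 26 lay above the midpoint and 2 below it. Sgk1, a kinase gene that glucocorticoids induce in many cells, was the member that fell (-1.06 ± 0.12). The receptor gene itself, Nr3c1, did not pass the test, at 4.83, 5.29 and 5.49 on day 4 against 4.84, 4.96 and 4.89 on day 0 (adjusted p = 0.125). Without day 4 replicate 1 it passed, at 0.50 (limma, adjusted p = 0.0166). Its day 0 levels were near the lowest detected signal of these arrays, 4.76 to 4.89, so its change is poorly measured.

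Of 23 tested cyclic AMP-responsive and immediate early genes 10 rose and 9 fell (median -0.01; 9 and 9 without day 4 replicate 2). As shares the main counts are 43.5% and 39.1%, against 28.9% higher and 31.2% lower over all tested genes. Egr1, an immediate early factor, measured 11.50, 12.27 and 12.57 on day 0 and 9.41, 9.04 and 8.91 on day 4, a difference of -2.99 ± 0.32. Fos and Ier3 differed by -1.47 ± 0.32 and -2.28 ± 0.11. Those that rose included Rgs2, a brake on G protein signalling (2.87 ± 0.11), the repressor gene Nfil3 (2.07 ± 0.08) and Prkar2b, a regulatory subunit of protein kinase A (1.76 ± 0.35). Of 16 circadian clock genes 10 rose and 4 fell (median 0.55; 9 rose without day 4 replicate 2). The output factor gene Dbp measured 10.40, 10.33 and 10.43 on day 0, 7.42, 7.30 and 7.35 on day 2 and 9.18, 9.57 and 9.31 on day 4, so it dipped on day 2 and differed by -1.04 ± 0.10 on day 4. The nuclear receptor genes Rora and Nr1d1 rose by 1.68 ± 0.21 and 0.94 ± 0.15. Of 25 insulin signalling genes 11 rose and 6 fell (median 0.16; 10 rose without day 4 replicate 2). Apart from Slc2a4 and Foxo1, the pseudokinase gene Trib3 rose by 2.48 ± 0.22 and Pik3cb, a catalytic subunit of phosphoinositide kinase, by 1.73 ± 0.12. The ubiquitous glucose transporter gene Slc2a1 fell, from 10.70, 10.87 and 10.99 to 9.24, 9.45 and 9.41 (-1.48 ± 0.09), opposite to Slc2a4.

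Glycolysis and hypoxia genes were divided, with 14 of 23 higher and 7 lower (median 0.47; 13 higher without day 4 replicate 2). As shares the main counts are 60.9% and 30.4%, against 28.9% and 31.2% of all tested genes. The hexokinase gene Hk2 measured 8.77, 8.72 and 8.73 on day 0 and 12.44, 12.37 and 12.35 on day 4, a rise of 3.65 ± 0.12. The aldolase gene Aldoa rose by 2.5 ± 0.10, the phosphofructokinase gene Pfkl by 1.79 ± 0.10 and the oxygen sensor gene Egln3 by 2.85 ± 0.21. The collagen prolyl hydroxylase gene P4ha2 fell by 1.26 on the log2 scale (SE 0.15). Stress programmes were more often higher than lower. Of 25 genes of the integrated stress response 16 rose and 1 fell (median 0.89; 17 rose without day 4 replicate 2 and 21 with the replicate block), led by the folate enzyme Mthfd2 (2.83 ± 0.12), the transsulfuration enzyme Cth (2.66 ± 0.21) and the amino acid transporter Slc7a5 (2.61 ± 0.10). Slc7a5 measured 9.88, 9.84 and 9.84 on day 0 and 12.52, 12.37 and 12.50 on day 4. Of 18 genes of the unfolded protein response 12 rose and 3 fell (median 0.63), and 1 fell without day 4 replicate 2. The chaperone gene Dnajb9 rose by 2.46 ± 0.19 and the transcription factor gene Xbp1 by 1.34 ± 0.10, while the disulfide isomerase gene P4hb fell by 0.31 on the log2 scale (SE 0.09). Of 28 proteasome subunits 22 rose and 1 fell (median 0.51; 20 rose without day 4 replicate 2), with Psmb3 at 1.02 ± 0.09.

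Cell cycle genes differed little between the ends of the interval and were raised on day 2. Of 35 tested DNA replication genes 9 rose and 8 fell from day 0 to day 4 (median -0.03), counts of 7 and 6 without day 4 replicate 2. The main counts are 25.7% and 22.9%, against 28.9% and 31.2% of all tested genes. On day 2, 32 of them were above the midpoint of their day 0 and day 4 means and none was below. The median level of the list was 7.90, 7.96 and 7.88 on day 0, 8.66, 8.93 and 8.72 on day 2 and 7.56, 7.67 and 7.64 on day 4. The replicative helicase subunit gene Mcm4 measured 11.32, 11.29 and 11.15, then 11.66, 11.49 and 11.42, then 10.23, 10.18 and 10.17, with a difference of -1.06 ± 0.09. Pold1 (-0.90 ± 0.10) and Lig1 (-0.88 ± 0.22) also ended lower. The cyclin genes Ccne2 and Ccne1 ended higher, by 1.25 ± 0.22 and 0.88 ± 0.11.

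For mitosis 2 of 27 tested genes rose and 11 fell (median -0.26), counts of 2 and 10 without day 4 replicate 2. The main counts are 7.4% and 40.7%, against 28.9% and 31.2% of all tested genes. On day 2, 25 of the 27 were above the midpoint and none below. Top2a, which untangles chromosomes, measured 8.34, 8.03 and 7.94 on day 0, 10.63, 10.30 and 10.31 on day 2 and 9.11, 8.34 and 8.75 on day 4. The day 0 and day 4 arrays touched at 8.34, and its day 4 rise of 0.63 ± 0.19 did not pass without day 4 replicate 1 (0.44, adjusted p = 0.0561). Kif23, Anln and Ndc80, which act in cell division, ended lower, with differences of -1.26 ± 0.16, -0.94 ± 0.11 and -0.93 ± 0.13. Mki67 was not analysed here. In the promoter search the CHR motif TTTGAA lay in 16 of the 22 mitosis genes with a promoter (72.7%), against 14.3% of tested genes. It was in 11 of the 12 such genes that passed the day 4 test and in 5 of the 10 that did not. Windows are shown for 4 members with a match before the start, among those of larger called change. They are Top2a, which rose, and 3 that fell, with TTTGAA or its reverse complement TTCAAA in capitals.
Top2a, chr11:99024190-99024249, minus strand: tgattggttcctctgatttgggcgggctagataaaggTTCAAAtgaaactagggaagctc
Prc1, chr7:80294416-80294475, plus strand: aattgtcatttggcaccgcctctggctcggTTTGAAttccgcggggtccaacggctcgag
Kif22, chr7:127042421-127042480, minus strand: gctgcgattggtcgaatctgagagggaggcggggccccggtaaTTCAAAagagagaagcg
Ncapd2, chr6:125191677-125191736, minus strand: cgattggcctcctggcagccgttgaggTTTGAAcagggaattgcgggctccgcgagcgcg

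The regulators of the G1 phase changed in both directions, 8 higher and 6 lower of 22 (median 0.03), or 9 and 7 without day 4 replicate 2. These are 36.4% and 27.3%, near the 28.9% and 31.2% of all tested genes. Cyclin D1 (Ccnd1) measured 12.56, 12.32 and 12.59 on day 0, 11.97, 12.06 and 12.12 on day 2 and 10.44, 10.48 and 10.36 on day 4, a difference of -2.06 ± 0.09. The inhibitor gene Cdkn2c, which blocks the kinases that cyclin D activates, measured 9.45, 9.23 and 9.43, then 9.91, 9.89 and 9.86, then 11.41, 11.31 and 11.46, a rise of 2.02 ± 0.10. Its relatives Cdkn2b and Cdkn2a fell, with differences of -1.90 ± 0.20 and -1.31 ± 0.17. E2f2 rose by 2.26 ± 0.19. Ribosome biogenesis was raised on day 2 and partly retained, with 17 of 27 genes higher and 2 lower on day 4 (median 0.55; 16 higher without day 4 replicate 2, and 19 and 4 with the replicate block) and 22 above the midpoint on day 2. Myc, undetected on day 0, was at least 3.0-fold higher on day 4, and the nucleolar genes Nhp2, Rrp12 and Nop56 rose by 1.52 ± 0.08, 1.45 ± 0.09 and 1.40 ± 0.21. Cytosolic ribosomal protein genes changed little: 2 of 35 rose and 16 fell (2 and 13 without day 4 replicate 2, 4 and 20 with the replicate block), with a median of -0.20 and differences between -0.68 (Rpl22) and 0.64 (Rpl7a).

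Extracellular matrix genes of fibroblasts fell almost without exception. Of 37 tested members 35 fell and none rose (median -2.06), and 29 fell by at least 2-fold. The median level of the list was 10.78, 11.04 and 10.97 on day 0, 8.38, 8.44 and 8.42 on day 2 and 7.19, 8.00 and 7.10 on day 4, with replicate 2 the highest day 4 array. The collagen I gene Col1a1 measured 12.93, 12.50 and 12.82 on day 0 and 8.95, 8.82 and 8.53 on day 4, a difference of -3.99 ± 0.19. Col3a1 measured 10.40, 12 and 11.48 and then 7.19, 9.40 and 8.17. It was lowest in replicate 1 and highest in replicate 2 on both days, and its difference was -3.04 ± 0.60. The small proteoglycan gene Ogn and the collagen gene Col16a1 differed by -4.17 ± 0.25 and -4.05 ± 0.21. Matrix proteases and their inhibitors fell together, 20 lower and 1 higher of 24 (median -2.37; 19 lower without day 4 replicate 2). The protease gene Mmp3 measured 8.93, 9.63 and 9.53 and then 4.74, 5.98 and 4.49, a difference of -4.29 ± 0.32. The inhibitor genes Timp3 and Timp1 differed by -4.26 ± 0.16 and -3.87 ± 0.14, and Mmp9 by -3.85 ± 0.15. Adam12 was the member that rose (1.35 ± 0.11).

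Basement membrane genes did not share that uniform fall. Of 19 tested members 9 fell and 4 rose (median -0.22). Those are 47.4% and 21.1%, against 31.2% lower and 28.9% higher over all tested genes. Sparc, a collagen-binding matrix protein, measured 13.30, 12.95 and 13.08 on day 0 and 10.92, 11.40 and 10.95 on day 4 (-2.02 ± 0.12), and Col4a5, Lamb2 and Nid2 differed by -2.11 ± 0.15, -2.06 ± 0.13 and -2.03 ± 0.11. The collagen IV gene Col4a1 went up, from 12.46, 12.21 and 12.22 to 13.71, 13.58 and 13.56 on day 2 and 13.15, 13.08 and 12.80 on day 4, a rise of 0.72 ± 0.13 over day 0. Lamb3 and Smoc1 rose by 1.20 ± 0.14 and 0.88 ± 0.14. Integrins, the receptors for these matrices, fell in 8 of 11 cases and rose in 2 (median -0.98). The 2 that rose encode laminin-binding chains: Itga6 measured 4.70, 5.05 and 5.25 on day 0 and 8.00, 8.67 and 8.55 on day 4 (3.41 ± 0.28), and Itga7 was undetected on day 0 and at least 5.0-fold higher on day 4. The collagen-binding Itga11 and the vitronectin-binding Itgb5 differed by -2.98 ± 0.20 and -2.17 ± 0.23. Laminin-binding chains did not all rise, as Itgb4 fell (-1.54 without day 4 replicate 2).

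Actin cytoskeleton and contractile genes fell in 23 of 32 cases and rose in none by their brightest probe (median -1.16). For Actb the brightest probe did not pass, and dimmer probes disagreed, at 2.41, 2.39, -1.12 and -0.96. Tropomyosin (Tpm1) measured 12.98, 12.91 and 12.90 on day 0, 9.66, 9.68 and 9.79 on day 2 and 8.80, 9.27 and 8.88 on day 4, a difference of -3.94 ± 0.10 of which most was present by day 2. Fhl2, a cofactor of serum response factor, and calponin (Cnn2) differed by -3.53 ± 0.20 and -3.37 ± 0.25.

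Signalling genes linked to the mesenchymal state were mostly lower. For TGF-beta and BMP signalling 25 of 34 fell and 3 rose (median -0.87; 24 fell without day 4 replicate 2). The ligand gene Tgfb3 measured 8.61, 8.40 and 8.40 on day 0 and 5.34, 4.91 and 5.10 on day 4 (-3.35 ± 0.16). The BMP antagonist Grem1, the latent-complex protein Ltbp1 and the TGF-beta-induced matrix gene Tgfbi differed by -3.50 ± 0.27, -3.43 ± 0.17 and -3.44 ± 0.21. The members that rose were the BMP target gene Id1 (1.61 ± 0.13), the SMAD corepressor gene Skil (1.24 ± 0.18) and Smad2 (0.39 ± 0.09). For Wnt signalling 14 of 27 fell and 3 rose (median -0.37), or 15 and 5 with the replicate block. Those main counts are 51.9% and 11.1%, against 31.2% lower and 28.9% higher over all tested genes. Besides Sfrp2 and Wnt6, the matricellular genes Ccn4 and Ccn5 and the receptor gene Fzd2 differed by -3.73 ± 0.14, -3.25 ± 0.10 and -2.67 ± 0.13. The nuclear effector gene Lef1 rose by 1.94 ± 0.15 and the coreceptor gene Lrp5 by 0.87 ± 0.14. Among growth factors and their receptors 16 of 27 fell and 5 rose (median -0.63; 4 rose without day 4 replicate 2). Fgf7 measured 10.75, 10.57 and 10.47 on day 0 and 6.66, 7.08 and 6.83 on day 4 (-3.74 ± 0.13). Angpt2, Ptn and Pdgfrb differed by -3.61 ± 0.10, -2.95 ± 0.13 and -2.89 ± 0.13. The angiogenic factor Vegfa rose by 0.69 ± 0.16, and its lymphatic relative Vegfc fell by 2.76 on the log2 scale (SE 0.13). The FGF receptor genes Fgfr2 and Fgfr1 rose by 1.34 ± 0.14 and 1.31 ± 0.16.

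Interferon-stimulated genes, which encode antiviral proteins, were lower on day 4 on replicates 1 and 3 and less so on replicate 2. Of 34 tested members 28 fell and 1 rose (median -1.56). The median level of the list was 7.12, 7.05 and 6.98 on day 0, 4.91, 4.95 and 4.94 on day 2 and 4.77, 5.56 and 4.80 on day 4. On day 2, 23 of the 34 lay below the midpoint and none above. Many of these levels are at background: 13 members were undetected on all day 2 arrays and 10 on all day 4 arrays. Ifit3, an antiviral effector, measured 9.51, 9.80 and 9.55 on day 0, 4.69, 4.79 and 4.67 on day 2 and 4.80, 7.89 and 4.79 on day 4. It was detected on day 4 only on replicate 2, and its difference of -3.79 ± 0.49 became -4.82 without that array. The remaining day 4 arrays were not above background, so the fall without replicate 2 is only a bound. The ubiquitin-like modifier gene Isg15 measured 8.77, 8.83 and 8.84 on day 0 and 5.41, 6.59 and 5.31 on day 4 (-3.05 ± 0.24, or -3.46 without replicate 2). Oasl2, Irgm2 and Parp14 differed by -4.05 ± 0.39, -3.41 ± 0.26 and -3.33 ± 0.19, or by -4.72, -3.90 and -3.59 without replicate 2. Ifi27l2a measured 10.18, 11.36 and 11.24 on day 0 and 6.03, 11.42 and 6.53 on day 4. The days overlapped for it because of replicate 2, and its difference was -2.93 ± 0.83 with that array and -4.64 without. Irgm1 was the member called higher (0.88 ± 0.21), but its probes disagreed, and the mean over them gave -0.92.

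The interferon-stimulated response element, the DNA element through which interferon induces these genes, was searched on both strands as GAAA, any 2 bases and GAAA and lay in the promoters of 15 of the 26 members with a promoter (57.7%), against 3.63% of tested genes. It was in 13 of 22 that passed the day 4 test and in 2 of 4 that did not. It is shown in 4 members that fell, with the match in capitals as it reads on the strand of the gene, either in that form or as its reverse complement. In Isg15, 3 matches overlap.
Ifit3, chr19:34583382-34583441, plus strand: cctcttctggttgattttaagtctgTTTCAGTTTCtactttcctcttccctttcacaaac
Irgm2, chr11:58214888-58214947, plus strand: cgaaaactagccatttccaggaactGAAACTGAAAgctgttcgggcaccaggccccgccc
Isg15, chr4:156200850-156200909, minus strand: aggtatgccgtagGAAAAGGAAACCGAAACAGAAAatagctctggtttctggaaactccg
Gbp2, chr3:142620579-142620638, plus strand: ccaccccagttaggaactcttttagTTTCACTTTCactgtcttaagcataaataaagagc

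Genes of antigen presentation by MHC class I fell in 12 of 22 cases and rose in 1 (median -0.59; 13 and 3 with the replicate block), and 10 lay below the midpoint on day 2 with none above. Over this list the main counts are 54.5% lower and 4.5% higher, against 31.2% and 28.9% of all tested genes. The light chain gene B2m measured 13.29, 13.49 and 13.53 on day 0, 11.71, 11.82 and 11.91 on day 2 and 11.29, 12.42 and 11.47 on day 4 (-1.71 ± 0.20, or -2.06 without replicate 2). H2-M3 and the peptide transporter gene Tap2 differed by -3.16 ± 0.13 and -1.42 ± 0.12, and the proteasome activator gene Psme2 rose by 1.00 ± 0.11. Chemokines and cytokines fell in 17 of 25 cases and rose in 2 (median -1.10; 16 fell without day 4 replicate 2). The monocyte attractant gene Ccl7 measured 10.07, 10.62 and 10.69 and then 6.36, 7.56 and 6.81 (-3.55 ± 0.25), and its relative Ccl2 and the growth factor gene Csf1 differed by -3.08 ± 0.20 and -3.30 ± 0.18. Cxcl13, undetected on day 0, was at least 4.6-fold higher on day 4, and Ccl25 rose by 1.04 ± 0.15. Acute phase and complement genes divided, with 8 of 20 higher and 5 lower (median 0.18; 7 higher and a median of 0.04 without day 4 replicate 2). The plasma protein genes Orm1 and Orm2 rose by 5.29 ± 0.13 and 4.17 ± 0.16, while the complement protease gene C1s1 (-2.60 ± 0.16) and Serping1, which encodes the inhibitor of that complex (at least 3.8-fold), fell.

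A further 3 lists changed in both directions. Antioxidant and detoxification genes had 16 of 39 higher and 16 lower (median -0.07; 14 higher without day 4 replicate 2). Among glutathione transferases, Gsta3 was undetected on day 0 and at least 10.6-fold higher on day 4, whereas Gstm2 measured 12.94, 12.93 and 12.89 and then 10.01, 11.09 and 10.02 (-2.55 ± 0.17) and Gstt1 differed by -3.50 ± 0.25. Lysosome and autophagy genes had 7 of 30 higher and 14 lower (median -0.35; 6 higher without day 4 replicate 2). As shares of that list the main counts are 23.3% and 46.7%. The collagen-degrading cathepsin gene Ctsk measured 9.95, 9.97 and 9.89 and then 6.76, 7.30 and 6.75 (-3.0 ± 0.14), and the autophagy genes Atg7 and Becn1 rose by 1.38 ± 0.15 and 1.06 ± 0.17. Of 8 caveola genes 5 rose and 1 fell (median 0.63; 4 rose without day 4 replicate 2). Cav2, Cavin1 and Cavin2 rose by 1.72 ± 0.18, 1.35 ± 0.18 and 0.87 ± 0.11, and Cavin3 measured 11.87, 11.70 and 11.77 and then 9.45, 10.03 and 9.45 (-2.14 ± 0.12).

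Of 21 brown and beige adipocyte markers only 11 were tested, and of these 7 rose and 1 fell (median 0.90). Without day 4 replicate 2, 6 rose. The member that fell was Eva1a (-0.70 without day 4 replicate 2). The potassium channel gene Kcnk3 measured 4.93, 4.87 and 5.04 on day 0 and 8.55, 8.54 and 8.47 on day 4, a rise of 3.57 ± 0.18. Elovl3, an elongase of brown fat, was undetected on days 0 and 2 and at least 5.8-fold higher on day 4. The cytochrome oxidase gene Cox8b was also undetected on days 0 and 2 and measured 6.66, 9.78 and 6.88 on day 4, at least 8.0-fold higher on average and at least 4.0-fold without replicate 2, which was well above the others. Cox7a1 measured 5.97, 7.41 and 6.14 on day 4, and its rise of 1.30 ± 0.30 became 0.85 without replicate 2. Ucp1, the uncoupling protein that defines brown fat, was not analysed here. Prdm16, Dio2, Tmem26, Tbx1 and Zic1 were among the other members not tested. Cidea and Ppargc1b, which were tested, also belong to other lists above. The 3 tested macrophage and leukocyte markers all fell, with a summed log2 level of 17.3 to 17.7 on the day 0 arrays and 14.0 to 14.3 on the day 4 arrays. The 3 tested endothelial markers also fell, with sums of 18.9 to 19.2 and 15.6 to 16. On every day 4 array 1 of the leukocyte markers (Lyz2) and 2 of the endothelial markers (Eng among them) were undetected, so those falls end at background. Whether other cells contributed to the falls in interferon, antigen presentation and chemokine genes was not tested. Of 6 skeletal muscle markers 1 rose (Des, 1.17 ± 0.10; 2 rose with the replicate block and without day 4 replicate 2) and 1 fell, and of 7 bone and cartilage markers 1 rose (Alpl, 0.97 ± 0.15) and 2 fell.

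**Figure D4:**
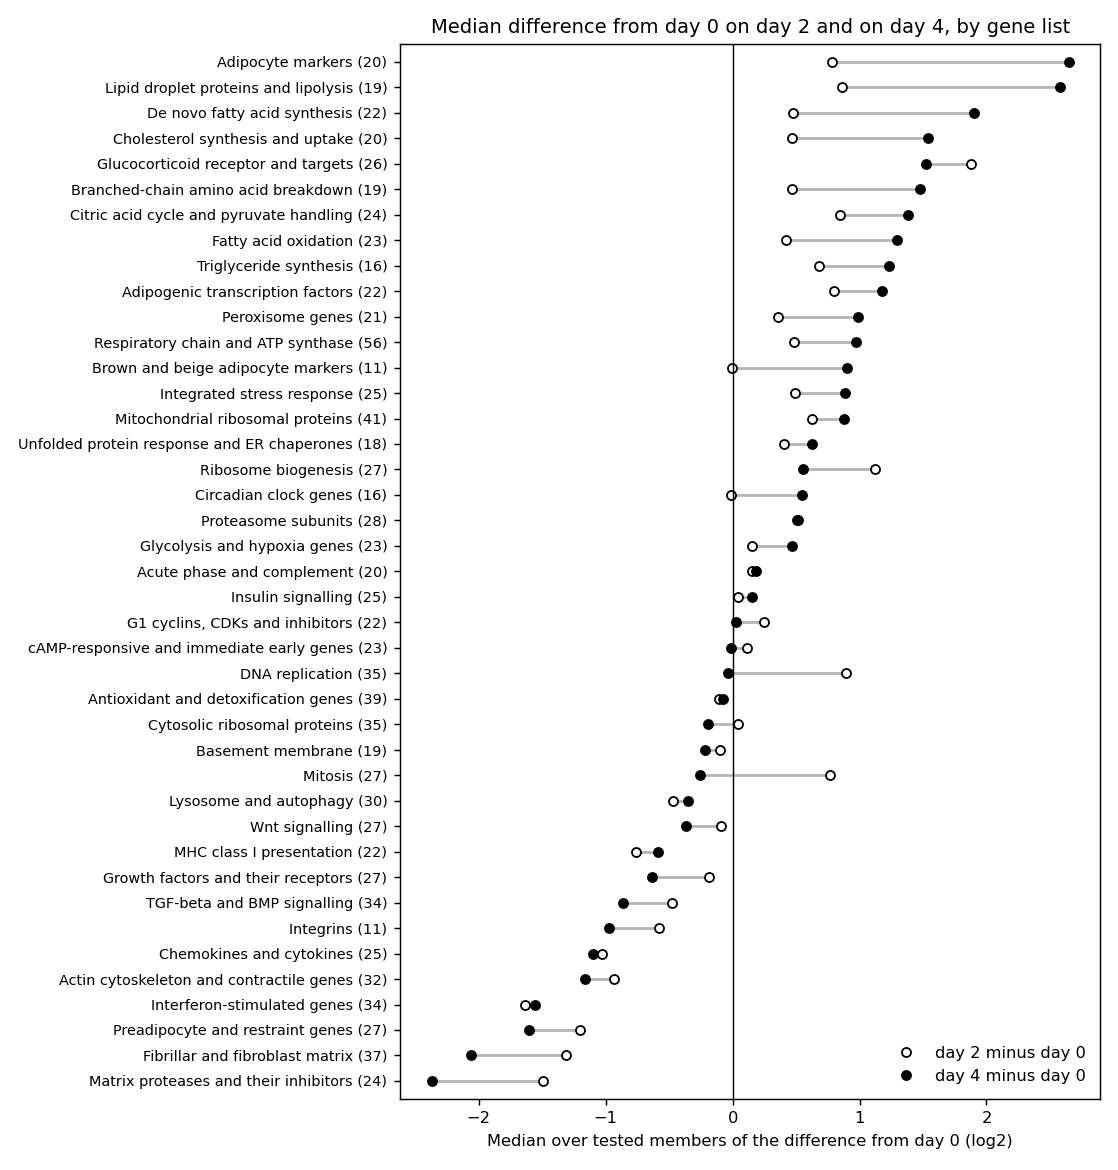
Median over the tested members of each list (number in brackets) of the log2 difference from day 0, on day 2 (open circles) and on day 4 (filled circles); both differences use the same day 0 arrays. DNA replication and mitosis are displaced on day 2 and lie near 0 on day 4, interferon genes are already at their day 4 position on day 2, and adipocyte markers move most after day 2. Of the 34 interferon genes, 13 were undetected on all day 2 arrays and 10 on all day 4 arrays.

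Day 2 placed the changes in time. Day 2 differed from day 0 in 4918 genes (51.5%) and day 4 from day 2 in 3958 (41.4%). The comparisons of day 2 and of day 4 with day 0 share the day 0 arrays, so their values are set side by side only. Among genes called at least 2-fold, the median share of the day 4 difference already present on day 2 was 58.1% for those that rose and 65.6% for those that fell. The median differences of adipocyte markers were 0.78 on day 2 and 2.65 on day 4, and those of cholesterol genes 0.47 and 1.54. Those of glucocorticoid targets were 1.88 and 1.52, those of interferon-stimulated genes -1.63 and -1.56, and those of matrix genes -1.31 and -2.06.

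A straight course between the ends was tested by setting day 2 against the midpoint of the day 0 and day 4 means. Day 2 was off the midpoint in 3506 genes (36.7%), 1734 above (18.1%) and 1772 below (18.5%). Of the 3506, 750 were not called higher or lower on day 4 than on day 0. The largest departures upward among genes that changed by day 4 were Pip, Lcn2, Fam107a, Krt13 and Krt15. Pip measured 4.61, 4.34 and 4.54 on day 0, 11.87, 11.73 and 11.62 on day 2 and 10.70, 10.43 and 10.41 on day 4, so that it stood 4.23 above the midpoint. The keratin gene Krt13 measured 4.65, 4.35 and 4.72, then 7.50, 7.49 and 7.73, then 5.24, 5.53 and 5.32, and returned most of the way. Krt15 stood 2.55 above the midpoint and ended higher by 1.51 ± 0.15. The largest departures downward were Cdsn, Ces1d, Ifit3, Gbp2 and Ccl9. The corneodesmosin gene Cdsn measured 10.09, 9.92 and 9.95 on day 0, 5.82, 5.76 and 5.80 on day 2 and 9.63, 9.42 and 9.62 on day 4. It was lost on day 2 to 3.98 below the midpoint and was nearly back by day 4. The carboxylesterase gene Ces1d measured 9.14, 9.15 and 9.33, then 7.20, 7.30 and 7.06, then 12.11, 12.53 and 12.15, so that it first fell and then rose past its starting level by 3.06 ± 0.09. The guanylate-binding protein gene Gbp2 and the chemokine gene Ccl9 were lowest on day 2, at 5.40, 5.19 and 5.11 and at 4.84, 4.64 and 4.70, and on day 4 replicate 2 was again the highest array for both, at 7.75 and 6.60.

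**Figure D5:**
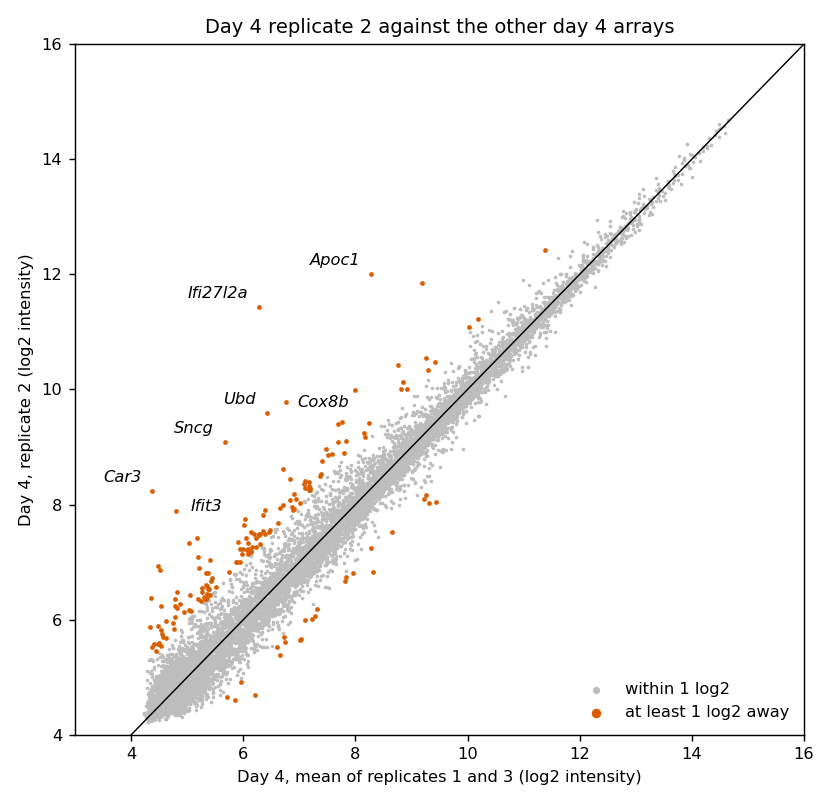
Each point is a gene, with the mean log2 intensity of day 4 replicates 1 and 3 on the horizontal axis and of day 4 replicate 2 on the vertical axis. Orange points are the 162 genes at least 1 log2 unit apart, 138 of them above the line of equality, and the labelled genes are those farthest above it together with Cox8b.

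The genes in which day 4 replicate 2 stood farthest from the others were Ifi27l2a, Car3, Apoc1, Sncg, Ubd and Ifit3, all brighter on it, by 5.14 to 3.10 on the log2 scale. The apolipoprotein gene Apoc1 measured 6.63, 6.51 and 6.72 on day 0 and 8.25, 12 and 8.31 on day 4. It rose with and without that array, by 2.90 ± 0.57 and by 1.67. The synuclein gene Sncg measured 6.89, 6.41 and 6.47 and then 5.86, 9.09 and 5.48, and the ubiquitin-like gene Ubd 7.26, 7.37 and 7.44 and then 6.50, 9.6 and 6.33. Neither passed the test with all arrays (adjusted p = 0.746 and 0.853), and without replicate 2 both were called lower, by -0.92 (adjusted p = 1.77e-05) and -0.94 (adjusted p = 4.98e-06). For each gene the mean of the other day 4 arrays was also taken from replicate 2. The median of that departure over the interferon-stimulated genes was 0.34. It was 0.23 each over matrix genes, MHC class I genes and brown and beige adipocyte markers, against -0.02 over all genes. These medians of departures are not the differences between the list medians, which were larger for interferon-stimulated and matrix genes.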

How the data were processed

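Per the file headers, the authors deposited linear intensity values of each probe, neither background-subtracted nor normalised, and a detection p-value beside each. Per the submitters' processing notes GenomeStudio 2011.1 was used, without its role. A further deposited table of normalised intensity, made by a method that the sources used here do not give, served as an alternative.

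Intensities of all 24 arrays were processed with neqc of limma 3.58.1 in R 4.3.3 (offset 16, negative controls modelled from the detection p-values). The 14160 probes whose detection p was below 0.05 on 3 or more arrays were kept, and each gene was represented by its brightest probe. In 51 genes, Actb, Irgm1 and Smad5 among them, probes of the same gene were called in opposite directions. A limma fit with a mean for each of the 8 days (16 residual degrees of freedom) gave the differences between days, and the test was checked on simulated data. Differences are on the log2 scale after an offset, which understates the change of dim genes. A gene undetected on every array of a day has only a bound there: the fold compares the brighter day's mean with, per array, the higher of the lowest detected signal and the probe's own value. The number of arrays limits the precision.

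Replicate numbers were used as a block in an alternative fit. Deviations from the day means correlated at 0.683, 0.425 and 0.302 between same-numbered day 0 and day 4 arrays, for replicates 1, 2 and 3. Day 0 replicate 3 with day 4 replicate 2 gave 0.251, and day 0 replicate 2 with day 4 replicate 3 gave 0.17. All other pairs were negative. Replicate 1 was thus set apart, while replicates 2 and 3 were less clearly separated. The pairing comes from these data and the numbers in the labels, which do not say what they mark.

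The comparison, the 46 gene lists and the motifs were chosen with earlier results of these data known. Lists are described by counts and medians beside those of all genes, with no test of the list. Named genes are the 15 largest rises and falls, in each list the called members that moved most (at most 5, and at most 3 against its majority), the 5 largest departures of day 2 in each direction, the 6 genes in which day 4 replicate 2 departed most, and a fixed set of adipocyte and fibroblast genes. The 12 motifs searched were the interferon-stimulated response element, CArG box, sterol regulatory element, E2F motif, C/EBP motif, DR1, CRE, GRE, CARE, CCAAT box, CHR and ERR motif, and the 3 shown were chosen after the search. Each shown motif has a count by list only for the list where it is shown, and the others have none. Sequences are from RefSeq, and the windows shown were not drawn from every chromosome.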

Additional observations from a re-analysis of the deposited data

How the results depend on the processing

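Without background correction 1309 genes were called at least 2-fold (589 higher, 720 lower), against 2339; the cause was not tested. Under the other settings this count stayed within 1.5 times the main one, as did the counts of called genes and of genes off the midpoint under every setting. With the replicate block 6621 genes were called, including all 5745 called without it, 2353 at least 2-fold and 4626 off the midpoint; it changed the counts of 28 of the 46 lists, by up to 7 members in a direction and with no count falling; those that moved by over 1.5 times, and those of the respiratory chain and the integrated stress response, are printed above. Of the named genes it changed the call of 2, Cd36 and Car3, which passed with it. Without day 4 replicate 2 the counts of 28 lists changed, by up to 3 members. Leaving out each array in turn gave 5373 to 5567 called genes, 2301 to 2385 at least 2-fold and 3008 to 3423 off the midpoint. Of the 297 named genes, 289 to 296 kept their call and direction under each setting that tested them all. The mean over probes turned Irgm1 to -0.92. Sncg ranged from -0.92 to 0.89 and Ubd from -0.94 to 0.69 when single arrays were left out, called only where day 4 replicate 2 was missing. Top2a lost its call without day 4 replicate 1 (0.44, adjusted p = 0.0561), and Ifi27l2a with only the arrays of the days compared (adjusted p = 0.101). Nr3c1 also passed in the authors' normalised table (0.58) and with array weights (0.43), and Cd36 with only the arrays compared (adjusted p = 0.00682). The effect of each setting on list counts was examined after seeing the data. Signal over background limits the comparison: 275 genes were undetected on both days, and changes that start or end at background are bounds.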

Other observations

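Of the probes kept, 840 had no gene name in the annotation used. Of these 453 differed between day 4 and day 0, 201 of them higher on day 4.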
